A study of Sus scrofa with 12 samples.

Results

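The regions described here are stretches of boar sperm mRNA that carried an m6A peak in every fresh sperm sample and in no frozen-thawed sperm sample. They were selected on the peak lists themselves. The intervals of the 6 lists, 3 of fresh sperm (Fs) and 3 of frozen-thawed sperm (Fts), were merged when they shared at least 1 bp, without regard to strand, and a merged region was kept when it held a peak of each Fs list and no peak of any Fts list. This gave 1101 Fs-only regions of 29695 merged regions, 3.71% of them. The presence of peaks in Fs and their absence in Fts chose the members, so that both are given as a description with no test. The regions lay on 907 genes, and 154 of them touched no mRNA exon of their own strand.

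Sperm of 3 mature Duroc boars was used, with 5 sperm-rich ejaculates collected from each boar, and each ejaculate was divided between the groups. The Fs part received no treatment and was snap-frozen for RNA. The Fts part was cooled to 17 °C, taken up in a lactose and egg yolk extender, cooled to 4 °C, mixed with the same extender containing 6% glycerol, frozen in straws over liquid nitrogen and thawed. Each group had 3 IP libraries, in which fragments of about 100 nucleotides were pulled down with an antibody to m6A, and 3 input libraries without that step. Whether the ejaculates of a boar were pooled was not given in the sources used here. The sperm pellets were treated with a detergent to remove somatic cells before the RNA was extracted.

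N6-methyladenosine (m6A) is a methyl mark that a complex around METTL3 and METTL14 places on adenosines of mRNA, mostly within the sequence class RRACH, where R is A or G and H is A, C or T. FTO and ALKBH5 remove the mark, and readers such as the YTH proteins bind it and alter the splicing, stability and translation of the mRNA. Ejaculated sperm make almost no new RNA, so that their transcripts were made earlier, during spermatogenesis, and many of them are fragments.

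A peak here is a stretch with more IP reads than the input of the same sample gives, and its score is the MACS score deposited by the authors, headed as 10 times -log10 of the p-value. If that heading holds, a score of 13 stands for a p of 0.05, 20 for 0.01 and 50 for 1e-05. The lowest score in each of the 6 lists was 3.02, which would be a p of 0.499, so that the scale is doubtful and the scores are used here only to rank and group the peaks. The lists held 8015, 10378 and 10335 peaks in Fs 1, Fs 2 and Fs 3, and 9682, 11510 and 11982 in Fts 1, Fts 2 and Fts 3. The lists give no read numbers, read depth was not analysed here, and the absence of a peak does not show the absence of the mark. In bulk samples, fewer cells of a type and less RNA per cell cannot be told apart, and a peak can be missing because the mRNA itself was scarce.

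Most Fs-only regions had low scores, and a minority was strong. The median score of the 1101 regions was 12.6 in Fs 1 (interquartile range 6.83 to 27.7), 18.0 in Fs 2 (8.70 to 36.5) and 15.7 in Fs 3 (7.35 to 33.9). In the same samples, the 1042 regions with a peak in all 6 samples had median scores of 47.1 to 57.5. The median of all regions with a peak in the sample was 12.0, 11.6 and 10.8 in Fs 1, Fs 2 and Fs 3. The Fs-only regions were thus near that median in Fs 1 and above it in Fs 2 and Fs 3, and below the shared regions in each of the 3 samples.

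The lowest of the 3 Fs scores, used below to rank the regions, had a median of 7.22. It was under 13 in 795 regions (72.2%), at least 20 in 188 (17.1%), at least 50 in 66 (5.99%) and at least 100 in 24 (2.18%). In 183 regions (16.6%) none of the 3 scores reached 13. The 3 samples ranked the regions alike only in part. Across the 1101 regions the Spearman correlation of the scores was 0.391 between Fs 1 and Fs 2, 0.410 between Fs 1 and Fs 3 and 0.452 between Fs 2 and Fs 3, values that rest on regions required to have a peak in each sample.

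A base covered by the peaks of all 3 Fs samples was present in 1099 regions, as the choice of merged regions with a peak of each Fs list nearly requires. In 583 regions (53.0%) the 3 samples had the same start and end to the base, and in 328 of these both ends were exon ends. No region held peaks of both strands, and 545 regions (49.5%) lay on the plus strand.

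A check with a new choice of regions was made, since the Fs-only regions were chosen on all 6 samples. For this, 1 Fs and 1 Fts sample of the same number were left out. Regions were then chosen on the other 4 samples, with a peak in both Fs and none in both Fts, and looked up in the omitted pair. Of 2613 regions chosen without the samples numbered 1, 50.4% had a peak in Fs 1 and 12.7% in Fts 1. Of 1926 chosen without those numbered 2, 68.4% had a peak in Fs 2 and 14.3% in Fts 2. Of 2020 chosen without those numbered 3, 67.9% had a peak in Fs 3 and 17.4% in Fts 3. The omitted Fs sample was thus above the omitted Fts sample in each of the 3 pairs, and Fs 1, with the shortest list, was the lowest of the Fs samples.

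The mean was 62.2% ± 10.2 (SD, n = 3) in the omitted Fs samples and 14.8% ± 2.38 in the omitted Fts samples. The difference was 47.4 ± 8.61 percentage points (p = 0.25 by an exact sign-flip test, two-sided, which with 3 pairs can give no smaller p). Over all merged regions of the same 4 lists, chosen or not, a mean of 29.0% had a peak in the omitted Fs sample and 34.0% in the omitted Fts sample. With the groups exchanged, regions with a peak in both Fts and none in both Fs had a peak in 64.8% ± 8.05 of cases in the omitted Fts sample and in 8.63% ± 1.70 in the omitted Fs sample. That difference was 56.1 ± 6.59 percentage points (p = 0.25 by the same exact test). With the samples numbered 1, 2 or 3 left out altogether, so that the choice rested on 1 sample per group, the first difference was 31.3, 26.0 or 27.6 and the mirror difference between 33.5 and 39.1 percentage points, with no test. The labels give no donor for a sample, and the p-values concern these samples alone. At their smallest possible value they reflect only that the 3 differences had the same sign, whatever their spread. Each pair also helped to choose the regions looked up in the others, so that the 3 differences lack the independence that the test assumes. Over all merged regions, 2 lists of the same group shared 33.7% to 37.4% of their regions and lists of different groups 16.5% to 19.3%. The held-out differences cannot be set apart from this general likeness of the lists of a group.

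The share found again in the omitted Fs sample was higher for regions with higher scores in the other 2. It was 47.3% ± 10.4 (SD, n = 3) for regions whose lowest score was between 3 and 5, 71.7% ± 12.2 for scores of 10 to 20 and 85.3% ± 3.10 for scores of 50 or more. The share with a peak in the omitted Fts sample also differed along this order, with 11.0% ± 2.99 at scores of 3 to 5 and 27.9% ± 5.04 at scores of 50 or more. Strong regions were therefore more often present in the omitted Fs sample and also less often free of a peak in the omitted Fts sample. No trend test was made on these values.

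On the genome, the regions were short and mostly exonic. They had a median length of 168 bp (interquartile range 104 to 411 bp), from 2 to 2942 bp, and covered 338439 bases in all. Of the 1101 regions, 947 (86.0%, 95% Wilson interval 83.8% to 87.9%) overlapped an mRNA exon of the same strand. Among the 154 others, 69 lay in the intron of a gene of the same strand, 4 on an exon of the other strand and 81 at none of these places in the annotation. The share on exons was 87.8% for all merged regions, 94.4% for the 1884 regions found only in the 3 Fts samples (6.34% of all merged regions) and 82.9% for the regions of all 6 samples. The intervals given for shares of regions cover counting error only, as regions of the same sample and gene are not independent.

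The midpoint of 830 regions could be placed on the longest coding transcript of the gene. Of these, 595 (71.7%) were in the coding sequence (CDS) more than 100 nt from the start and stop codon, 68 (8.19%) within 100 nt of the start codon, 58 (6.99%) in the rest of the 5′UTR, 31 (3.73%) within 100 nt of the stop codon and 78 (9.40%) in the rest of the 3′UTR. The coding class made up 47.5% of the length of these transcripts and the 3′UTR class 30.2%. The regions thus held 1.51 times the length share in the CDS, 1.50 times around the start codon, 0.655 times around the stop codon, 0.311 times in the 3′UTR and 0.628 times in the 5′UTR. For the Fts-only regions the same ratios were 1.69, 1.17, 0.605, 0.196 and 0.361, and for the regions of all 6 samples 1.41, 1.50, 0.423, 0.361 and 1.04. The CDS class took 80.8% of Fts-only regions and 68.1% of the regions of all 6 samples. Over all merged regions the CDS share was 73.8% and the ratios were 1.53, 1.50, 0.716, 0.274 and 0.543. The Fs-only regions were near these values in the CDS and around the start codon, and the sets differed most in the 5′UTR.

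First exons held 136 of the 830 placed regions (16.4%, 95% Wilson interval 14.0% to 19.1%), against 8.90% of the Fts-only regions, 24.7% of the regions of all 6 samples and 13.6% of all merged regions. Last exons held 19.3%, 15.3%, 24.7% and 18.1% in the same order. Both ends of the region coincided with exon ends in 418 Fs-only regions (38.0%), in 61.9% of the Fts-only regions, in 35.9% of the regions of all 6 samples and in 44.7% of all merged regions. This feature differed between the lists as a whole. The share of peaks that spanned an entire exon was 33.3%, 34.3% and 33.7% in the lists of Fs 1, Fs 2 and Fs 3, and 44.4%, 48.8% and 45.9% in those of Fts 1, Fts 2 and Fts 3. The values of the 3 Fs lists were below those of the 3 Fts lists, and the part of this in the difference between the region sets was not tested.

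The Fs-only regions were richer in G and C than the Fts-only regions. Their median GC content was 53.1% (interquartile range 45.5% to 61.5%), that of the Fts-only regions 48.2%, that of the regions of all 6 samples 51.6% and that of all merged regions 50.4%. Within the CDS class the medians of the first 3 sets were 52.5%, 47.7% and 51.0%. Among regions free of Fts peaks, those with a peak in 1 Fs sample had a median of 50.9% and those with a peak in 2 Fs samples 50.6%. The regions with a peak in the 3 Fs samples and in 1 Fts sample had 52.5%, near the value of the Fs-only regions. Over entire lists the medians were 52.0%, 51.1% and 51.1% for Fs 1, Fs 2 and Fs 3, against 49.4%, 50.3% and 50.1% for Fts 1, Fts 2 and Fts 3. None of these differences was tested, since the regions were selected on the same contrast.

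Among the Fs-only regions themselves, those of the highest score class were the most GC-rich. The median GC content was 52.6% in the 345 regions whose lowest score was under 5, 51.5% in the 352 regions from 5 to 10, 53.6% in the 216 from 10 to 20, 54.9% in the 122 from 20 to 50 and 60.3% in the 66 of 50 or more. Of the strongest regions that could be placed on a transcript, 31 of 49 (63.3%) were in the CDS class and 9 (18.4%) in a first exon. From the weakest class up, the other classes had CDS shares of 73.8%, 70.5%, 71.5% and 73.9% and first exon shares of 13.7%, 17.2%, 17.0% and 19.6%, so that neither share followed the order of the scores throughout. Length differed little along this order, with medians between 160 and 180 bp.

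The m6A sequence class was common in the regions. Without regard to length, its share was below those of the Fts-only regions, the regions of all 6 samples and all merged regions. RRACH occurred in 906 of the 1101 regions on the strand of the peak (82.3%, 95% Wilson interval 79.9% to 84.4%), in 91.9% of the Fts-only regions, in 89.1% of the regions of all 6 samples and in 84.6% of all merged regions. Among the other regions free of Fts peaks, RRACH occurred in 79.2% of those with a peak in 1 Fs sample. It occurred in 82.2% of those with a peak in 2 Fs samples. Counted by length, there were 12.7 RRACH per 1000 bases in the Fs-only regions and 15.1 in the Fts-only regions. The regions of all 6 samples held 12.7 and all merged regions 13.7. GGACT, which is 1 of the RRACH sequences, occurred in 251 Fs-only regions (22.8%, 20.4% to 25.4%), in 25.7% of the Fts-only regions, in 34.1% of the regions of all 6 samples and in 22.7% of all merged regions. Per 1000 bases the counts were 0.937, 0.989, 0.939 and 0.991 in the same order. A match shows only that these letters are present.

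In regions of like length, RRACH was less frequent in the Fs-only than in the Fts-only regions in each of the 4 length classes, while the Fs-only regions were above the regions of all 6 samples in 3 of them. The shares in Fs-only, Fts-only and shared regions were 67.9%, 76.6% and 61.8% from 50 to 99 bp and 80.2%, 91.4% and 85.0% from 100 to 149 bp. They were 89.0%, 94.0% and 88.0% from 150 to 199 bp, and 93.2%, 97.4% and 91.8% from 200 to 299 bp. Of all merged regions in these classes, 70.5%, 84.5%, 91.8% and 94.8% held RRACH, above the Fs-only share in each. For GGACT the shares in Fs-only, Fts-only and shared regions were 8.93%, 7.11% and 5.88% from 50 to 99 bp, 13.4%, 9.43% and 6.80% from 100 to 149 bp, 15.6%, 14.9% and 21.6% from 150 to 199 bp, and 21.2%, 18.3% and 20.5% from 200 to 299 bp. The Fs-only regions were above the Fts-only regions in each class, unlike in the values without regard to length, with overlapping Wilson intervals, and above the shared regions in 3 of the 4. Of all merged regions 7.27%, 11.4%, 16.1% and 22.1% held GGACT, below the Fs-only share in the 2 shorter classes and above it in the 2 longer ones.

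The 2 strongest regions stood far above the rest. The first lay in LOC110257542 (chr18:55967281-55967454, plus strand, in the 3′UTR in exon 3 of 3 and reaching past the annotated gene end), a gene without an informative name, and had a score of 3100 in each of Fs 1, Fs 2 and Fs 3. This is the highest score in the Fs lists and was shared by 12, 14 and 14 of their peaks, which cannot be ranked among themselves. The next lay in the CDS of exon 1 of 9 of YBX2 (chr12:52641015-52641651, minus strand), with scores of 3100, 2478 and 3019. YBX2 is the germ cell Y-box protein that binds and stores mRNAs in spermatids. No Fts sample had a peak in either region. On other exons of LOC110257542, Fts 1 had 1 peak and Fts 2 and Fts 3 had none. On those of YBX2, Fts 2 had 1 peak and Fts 1 and Fts 3 had none. The GC content of the YBX2 region was 79.9%.

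RNA-binding and chromatin genes followed. HNRNPK, a nuclear ribonucleoprotein that binds C-rich RNA, had scores of 786, 825 and 509 at the start of its last exon next to the stop codon (chr10:30986596-30986799). Its gene carried 3, 4 and 4 peaks in Fts 1, Fts 2 and Fts 3 elsewhere. The nearest was at 465 bp on the genome, and an Fts peak met the region across a splice junction of the mRNA. CHD4, the ATPase of the NuRD complex, had scores of 576, 483 and 578 in the 5′UTR of exon 1 of an alternative transcript (chr5:64071757-64071864), with 3 Fts peaks on other exons in each Fts sample. The mRNAs of both genes thus had peaks in each of the 6 samples. HDAC1, the histone deacetylase of the same complex, had scores of 108, 187 and 115 in a region that reaches over its annotated start (chr6:88749426-88749768) and 1 Fts peak elsewhere in each Fts sample.

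Among the 20 strongest regions on exons, 7 had an Fts peak that ended at the neighbouring exon end and so met the region on the spliced mRNA. They were those of HNRNPK, BRIX1, RUFY4, DDR1, LOC100154044, SEMA6B and SLC38A5. For these 7, the absence of an Fts peak concerns the exon of the region and not the adjoining exon. Over all Fs-only regions the share was 8.72%.

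Of the 20 strongest regions, 3 lay in genes without a peak on any exon in any Fts sample. LMO1, a LIM-domain regulator of transcription, had scores of 235, 251 and 185 in its last exon, which it filled (chr9:1082644-1082974). FEZ2 had scores of 215, 130 and 139 in the CDS of exon 1 (chr3:103566277-103566511). ACAP1, a GTPase-activating protein for ARF6, had scores of 159, 357 and 127 in the CDS (chr12:52690612-52690795). The 3 Fs samples were above 100 in each of these regions, and none of them was the highest throughout.

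Some of the 20 regions lay in genes of membrane receptors and transporters. DDR1, a receptor tyrosine kinase for collagen, had scores of 155, 335 and 555 in the CDS of exon 12 of 18 (chr7:23386170-23386335), and it was the only gene of the 20 with a second Fs-only region. SLCO2B1, an organic anion transporter, had scores of 219, 172 and 154 in exon 14 of 16 (chr9:9470913-9470977). SLC38A5, a transporter of neutral amino acids, had scores of 214, 175 and 104 in exon 13 of 16 (chrX:42592957-42593072). The order of the samples differed, with Fs 3 the highest in DDR1 and Fs 1 the highest in both transporters. SEMA6B, a transmembrane semaphorin, had scores of 186, 116 and 533 in the CDS of exon 8 of 17 (chr2:74288812-74288931), with an Fts peak 430 bp away on the genome.

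Several of the 20 were very short. In BRIX1, a factor of ribosome assembly, the region was 14 bp long (chr16:20514481-20514494) and had scores of 224, 182 and 166. In LOC100626020 it was also 14 bp long (chr7:78094240-78094253), with scores of 291, 268 and 552. In RUFY4 it was 25 bp long (chr15:120200320-120200344), with scores of 205, 163 and 346. The regions of BRIX1 and RUFY4 had 1 end at an exon end, and that of LOC100626020 lay inside the only exon of the gene. Fts 3 had 1 peak on LOC100626020, and the nearest Fts peak on the genome was 148 bp from the region with a score of 139. In all, 85 Fs-only regions (7.72%) were shorter than 50 bp.

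Others of the 20 had varied roles. DZIP1, a protein of the base of the cilium, had scores of 120, 173 and 168 in exon 6 of 25 (chr11:65193466-65193522). FAM168A had 516, 228 and 190 next to its start codon in exon 1 (chr9:8071532-8071667). ABHD14A, which belongs to the alpha/beta hydrolase fold proteins, had 152, 132 and 228 in the 5′UTR of exon 1 of 5 (chr13:34105657-34105814). Fts 2 and Fts 3 each had 1 peak on ABHD14A, and the nearest Fts peak on the genome was 350 bp away with a score of 251. LOC100154044 had 132, 161 and 198 in the 3′UTR of its last exon, exon 4 of 4 (chr7:75768097-75768696).

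The sequences of 6 of these regions are shown from the reference genome, to make visible how few sites of the m6A sequence class a strong region can hold. They are those of the 20 that lay entirely in coding sequence on an assembled chromosome and were 50 to 300 bases long, up to 6 in order of the lowest score. They are given 5′ to 3′ on the strand of the gene from Sscrofa11.1 (susScr11), at the positions named above, on the plus strand except for DZIP1 on the minus strand. Capitals mark matches to RRACH. ACAP1 holds 1 match, which is GGACT, FEZ2 holds 3, SEMA6B holds 2, DDR1 and SLCO2B1 hold 1 each and DZIP1 holds none. The printed stretch is the merged region, and the 3 Fs peaks did not always share all of it. They shared only 2 of the 57 bases in DZIP1, 74 of 235 in FEZ2 and 137 of 166 in DDR1. In SLCO2B1, ACAP1 and SEMA6B they shared the entire region. The missing match in DZIP1 thus describes the merged stretch and not a site common to the 3 samples.
DDR1: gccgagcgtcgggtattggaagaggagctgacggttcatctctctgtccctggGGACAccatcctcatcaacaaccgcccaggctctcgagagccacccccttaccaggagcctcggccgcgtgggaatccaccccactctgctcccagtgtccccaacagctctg
SLCO2B1: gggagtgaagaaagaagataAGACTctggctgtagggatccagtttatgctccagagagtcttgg
FEZ2: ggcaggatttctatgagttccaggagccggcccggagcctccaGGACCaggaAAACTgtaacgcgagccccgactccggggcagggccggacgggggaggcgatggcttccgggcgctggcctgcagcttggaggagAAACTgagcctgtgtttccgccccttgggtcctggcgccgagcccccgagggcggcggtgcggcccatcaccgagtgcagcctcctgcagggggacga
ACAP1: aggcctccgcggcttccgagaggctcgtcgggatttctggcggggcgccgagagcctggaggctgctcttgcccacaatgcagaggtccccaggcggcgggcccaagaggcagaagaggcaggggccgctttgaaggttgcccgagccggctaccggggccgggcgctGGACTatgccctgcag
DZIP1: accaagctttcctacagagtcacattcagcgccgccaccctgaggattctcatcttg
SEMA6B: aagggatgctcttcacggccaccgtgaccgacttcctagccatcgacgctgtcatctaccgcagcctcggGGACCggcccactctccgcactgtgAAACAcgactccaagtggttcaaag

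Most genes held a single Fs-only region. Of the 907 genes, 869 had 1 region, 36 had 2 and 2 had 3. The genes with 3 were MALRD1, a membrane protein linked to bile acid control, with regions in exons 15, 23 and 32 of 44, and ADAMTS3, a procollagen protease, with regions in exons 11, 15 and 18 of 22. ADAMTS3 had 5 peaks in each Fs sample and none in any Fts sample. MALRD1 had 3, 6 and 6 peaks in Fs 1, Fs 2 and Fs 3, and 2 peaks in Fts 1 with none in Fts 2 and Fts 3. Among the genes with 2 regions, FYN, a kinase of the Src family, RALY, a ribonucleoprotein, NFKBIZ, a regulator of NF-kappaB, and PRMT1, an arginine methyltransferase, had 2 peaks in each Fs sample and none in any Fts sample. Other genes had the same pattern, and these 4 were chosen after their values were seen. Among the 1336 genes with Fts-only regions, 200 had 2 and 81 had 3 or more, up to 21 in 1 gene. Single regions also prevailed among the 817 genes with regions of all 6 samples, where 772 had 1, 43 had 2 and 2 had 3 or more. Of the 11648 genes with any merged region, 5569 had 1, 2702 had 2 and 3377 had 3 or more.

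Many genes with an Fs-only region had Fts peaks at other places. Of the 907 genes, 386 (42.6%, 95% Wilson interval 39.4% to 45.8%) had no peak on any exon in any Fts sample. The share was 23.4% for all 11648 genes with a merged region. It was 30.7% for the 8892 genes with a peak in at least 1 Fs sample and 14.7% for the 3308 genes with a peak in each. These shares are a description, since the choice required regions free of Fts peaks. Of the 907 genes, 231 (25.5%) had at least 1 peak elsewhere in each of the 3 Fts samples. The share without an Fts peak depended on the lists used. It was 53.1% with lists of equal length, 50.5% without Fts 3, 68.3% with a minimum score of 20, 76.3% with a minimum of 50, and 32.2% for the regions with a score of at least 50 in each Fs sample and no Fts peak of any score. Of the genes with Fts-only regions, 37.9% had no Fs peak. As the input libraries were not analysed here, whether the RNA of the 386 genes was present in Fts was not tested. The nearest Fts peak of a region was a median of 17967 bp away on the genome. It was within 100 bp for 10 regions, within 1000 bp for 90 (8.17%) and within 10000 bp for 398 (36.1%), and 8 regions lay on scaffolds with no Fts peak. In 96 regions (8.72%) an Fts peak ended at the neighbouring exon end of the same gene, so that it met the region across a splice junction.

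Some mRNAs carried both kinds of region. An Fs-only and an Fts-only region were present in 85 genes, 9.37% of the genes with Fs-only and 6.36% of those with Fts-only regions. Over all 11648 genes with a merged region, 11.5% had an Fts-only and 7.79% an Fs-only region, so that genes with both kinds were no more frequent than these shares. In HNRNPA2B1, which encodes a ribonucleoprotein described as a reader of m6A, the Fs-only region was in exon 9 of 12 (chr18:46211801-46211920) with scores of 34.4, 132 and 91.3. The Fts-only regions of this gene lay near the start codon in exon 2 (682, 1472 and 1070 in Fts 1, Fts 2 and Fts 3) and in the 3′UTR in exon 12 (137, 649 and 221). Scores of Fs and of Fts were not scaled to each other. An Fts peak met the Fs-only region across a splice junction, with the nearest Fts peak 246 bp away on the genome. The GC content of the Fs-only region was 55.0%, with 32.3% and 33.6% in the Fts-only regions.

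FOXO3, a transcription factor of the stress response, had an Fs-only region in exon 2 of 4 with scores of 5.83, 3.47 and 10.9 and an Fts-only region in exon 3 with scores of 99.1, 172 and 72.3. CHD4 had Fts-only regions in exons 12 and 24 of 40, the second with scores of 67.2, 131 and 182. SMARCC1, a core subunit of the SWI/SNF complexes, had its Fs-only region around the start codon in exon 1 of 29 (23.2, 26.6 and 49.1) and an Fts-only region in exon 4 (6.28, 20.9 and 85.1). In 10 of the 13 genes of the lists below that held both kinds, CHD4, FOXO3, HNRNPA2B1 and SMARCC1 among them, the Fs-only region had a higher GC content than any Fts-only region of the gene. For CHD4 it was 76.9% with 49.0% and 49.6% in the Fts-only regions, for FOXO3 77.7% with 61.4% and 51.6%, and for SMARCC1 76.3% with 40.7%. In the other 3 it did not, with 49.7% against 54.2% in DNAH5, 42.1% against 42.2% in ADCY10 and 43.4% against up to 43.5% in USP34. The genes shown were picked after their values were seen. In FOXO3 and SMARCC1, too, an Fts peak met the Fs-only region across a splice junction.

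The genes were also grouped by lists of sperm biology and of cell signalling. The shares over all genes with a merged region, 7.79% with an Fs-only and 11.5% with an Fts-only region, stand beside each list below. No list was tested, and a gene with more exons and more peaks has more chances to be counted.

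Of the genes of the flagellum and axoneme, the motor and scaffold of the sperm tail, 7 of 60 with any region had an Fs-only region (11.7%) and 12 had an Fts-only region (20.0%). The 7 were DZIP1, DNAH5, DNAH17, DNAH10, ARMC2, SPAG16 and TTC21A. The dynein heavy chain DNAH5 had scores of 33.7, 12.6 and 7.65 in exon 36 of 81, with an Fts peak across a splice junction, and DNAH17, a heavy chain of the outer arms in sperm, had 14.4, 6.97 and 28.8 in exon 18 of 83. ARMC2, needed for the axoneme of the tail, had 9.11, 19.0 and 5.86 in the 5′UTR of exon 1. Apart from DZIP1, the 3 samples had at least 1 score under 10 in each of these genes.

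Of the genes of the acrosome, sperm head and gamete fusion, 6 of 29 had an Fs-only region (20.7%) and 2 had an Fts-only region (6.90%). Of the 11 lists of function, this was the only 1 with more genes of the first kind than of the second. No test was made of this difference, and the lists are small. ACR, which encodes acrosin, the serine protease of the acrosome, had 2 Fs-only regions, in exon 2 of 9 (17.5, 13.2 and 12.1; chr5:34771-34881) and around the stop codon (18.6, 4.80 and 30.5; chr5:30127-30459). No Fts sample had a peak on ACR. SUN5, which anchors the sperm head to the tail, had 104, 17.2 and 56.6 in exon 4 of 14 and 1 Fts peak elsewhere on the gene in each Fts sample. Outside the list, and named after its values were seen, ZAN had scores of 179, 280 and 101 in exon 36 of 41 (chr3:8666413-8666612), with 1 Fts peak elsewhere on the gene in each Fts sample. It encodes zonadhesin, a protein of the sperm head that binds the zona pellucida.

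The other genes of this list take part in membrane fusion or head formation. UNC13A, which primes vesicles for fusion, had 40.6, 33.7 and 74.5 in exon 7 of 45, in a gene with 6, 9 and 10 peaks elsewhere in Fts 1, Fts 2 and Fts 3. CPLX2, a complexin that binds the SNARE complex, had 41.6, 43.3 and 21.3 and no Fts peak on the gene. CCDC136 and RIMS1 completed the list. Its scores were between 3.54 and 104, well under those of YBX2 or HNRNPK. UNC13A, CPLX2 and RIMS1 are also known as genes of the nerve synapse.

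Among genes of spermatid chromatin condensation, 2 of 14 had an Fs-only region (14.3%), HDAC1 and RNF8, and 3 had an Fts-only region (21.4%). RNF8, a ubiquitin ligase, had scores of 6.49, 10.1 and 14.6 around its start codon. Among genes of germline RNA and meiosis, 2 of 42 had an Fs-only region (4.76%), YBX2 and SYCP2, and 7 had an Fts-only region (16.7%). SYCP2, a protein of the synaptonemal complex, had 5.93, 24.1 and 11.1 in exon 35 of 42. Among m6A writers, erasers and readers, HNRNPA2B1 was the only 1 of 23 with an Fs-only region (4.35%), and 5 had an Fts-only region (21.7%).

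Among sperm ion channels and genes of cAMP signalling, 3 of 36 had an Fs-only region (8.33%) and 4 an Fts-only region (11.1%). CFTR, the chloride and bicarbonate channel, had scores of 56.0, 51.0 and 7.79 in the 3′UTR of its last exon, exon 27 of 27. CATSPER3, a subunit of the calcium channel of the sperm tail, had 10.4, 4.73 and 13.2 in exon 2 of 8 and no Fts peak on the gene. ADCY10, the bicarbonate-sensitive adenylyl cyclase of sperm, had 26.2, 3.23 and 19.8 in exon 10 of 31 and an Fts-only region in exon 21.

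Among genes of energy metabolism, 3 of 46 had an Fs-only region (6.52%) and 4 an Fts-only region (8.70%). PDHA2, the testis form of the pyruvate dehydrogenase subunit, had 35.0, 95.6 and 11.5 in the CDS with no Fts peak on the gene. IDH1, the cytosolic isocitrate dehydrogenase, had 19.7, 7.26 and 6.82 in the 3′UTR, and ACACB, an acetyl-CoA carboxylase, had its region in the CDS, with 5.11 in Fs 3 as the lowest score and an Fts peak across a splice junction. Among genes of apoptosis and stress response, 3 of 44 had an Fs-only region (6.82%) and 7 an Fts-only region (15.9%). BCL2, the inhibitor of apoptosis, had 10.8, 56.0 and 11.2 in its 3′UTR. CARD6, a protein with a caspase recruitment domain, had 20.9, 18.8 and 27.3 in the 3′UTR and 2 Fts peaks on the gene in each Fts sample, the nearest Fts peak at 166 bp. FOXO3 was the third.

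Of 78 genes of chromatin remodelling and histone modification, 9 had an Fs-only region (11.5%) and 36 had an Fts-only region (46.2%). The median gene of this list had 5 merged regions, and that of all genes had 2. Besides CHD4 and HDAC1, the strongest were SMARCC1 and SETD5, a SET-domain protein, with 20.9, 52.9 and 60.4 in exon 21 of 25. The others were DNMT3A, EHMT1, CHD7, KAT5 and SMARCA2.

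Of 58 genes of the ubiquitin system, 5 had an Fs-only region (8.62%) and 16 an Fts-only region (27.6%). HERC2, a giant ubiquitin ligase, had 13.6, 35.1 and 15.7 in exon 37 of 94, USP34, a deubiquitinase, had 10.6, 19.3 and 28.0 in exon 62 of 80, and RNF8, USP48 and UBR4 were the others. Of 68 genes of mTOR, AMPK, MAPK and TGF-beta signalling, 2 had an Fs-only region (2.94%) and 13 an Fts-only region (19.1%). RPS6KA1, a ribosomal S6 kinase, had 13.2, 13.9 and 17.5 in exon 3 of 21.

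Among 5 lists of cell type markers, 4 held no Fs-only region. Of 19 spermatid and sperm markers in the annotation, 10 had a region of any kind, none had an Fs-only region and SPATA18 had an Fts-only region. A peak was present on 2 of these genes in each Fs sample and on 2, 6 and 5 in Fts 1, Fts 2 and Fts 3. None of 10 leukocyte markers, 7 markers of epithelium and accessory glands and 10 markers of Sertoli and Leydig cells with a region had an Fs-only region. Fts-only regions were present in none of the leukocyte markers, in 2 epithelial markers (KRT8 and KRT19) and in 1 Sertoli cell marker (SOX9).

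Of 9 markers of endothelium, fibroblasts and erythrocytes with a region, 2 had an Fs-only region (22.2%) and 1 an Fts-only region (11.1%). VWF, the von Willebrand factor of endothelium, had 9.54, 26.9 and 17.1, and COL1A1, a collagen of fibroblasts, had 10.1, 3.30 and 5.07. The Fts-only region was in FN1. Of the 14 such genes in the annotation, 7, 8 and 6 had a peak in Fs 1, Fs 2 and Fs 3 and 8, 6 and 8 in Fts 1, Fts 2 and Fts 3. Peak lists give no level of an mRNA, and the part of other cells in the Fs-only regions was not tested.

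Fs-only regions were present on each of the chromosomes. Chromosome 6 held 121 Fs-only regions, 4.28% of its merged regions, chromosome 2 held 105 (3.90%) and chromosome 1 held 100 (3.54%). Over the autosomes the share ran from 2.29% on chromosome 11, with 10 regions, to 5.09% on chromosome 17, with 44. The X chromosome held 15 (3.72%) and the Y chromosome 3 of 38. A median of 1.72% of the bases of a region was soft-masked as repeat, with 4.05% in the Fts-only regions, 7.49% in the regions of all 6 samples and 1.23% over all merged regions.

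At the border of the set, many of the Fts peaks that kept a region out had low scores. Just outside were 695 regions with a peak in the 3 Fs samples and in 1 Fts sample, and the score of that Fts peak had a median of 8.37 and was under 13 in 434 of them (62.4%). The 5 with the lowest Fts score were in PARP14, COL5A3, PIGV, CLVS2 and PCMTD1, with a single Fts peak of 3.02, 3.05, 3.06, 3.08 and 3.08. The Fs scores in PIGV were 38.2, 99.0 and 36.4, so that 1 of the weakest peaks in the Fts lists kept this region out. In PARP14 the Fs scores were 3.49, 10.8 and 16.8.

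Another 2293 regions had a peak in 2 Fs samples and in no Fts sample. The missing sample was Fs 1 in 1178 of them (51.4%), Fs 2 in 548 and Fs 3 in 567. Just inside were the members nearest to an Fts peak. The 5 nearest were at 20, 40, 44, 54 and 64 bp. Of these, SIPA1L3 had scores of 26.4, 18.1 and 10.6, SHROOM3, an actin-binding protein, had 29.6, 154 and 77.0, and ZNF397 had 3.34, 3.77 and 3.17. A region on an unplaced scaffold and 1 on chromosome 17 (chr17:8640876-8641817) touched no exon of their strand and had scores of 40.9, 57.2 and 24.5 and of 26.6, 49.1 and 34.9. The Fts peak 44 bp from the SHROOM3 region had a score of 392, above its 3 Fs scores. Those at 20 and 54 bp from the unplaced and the chromosome 17 region had 26.7 each.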

How the data were processed

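MeRIP-seq gave 3 IP and 3 input libraries for Fs and for Fts. Per the submitters' notes and the study's methods, reads were trimmed with cutadapt 1.9.3 and aligned with HISAT2 to susScr11 (Sscrofa11.1). The authors called peaks with MACS in each IP library against the input of the same sample, without pooling, and their own program kept peaks on mRNAs. Each peak carries the score deposited by the authors, headed as 10 times -log10 p, and it was not scaled between samples. A deposited list of sites that differed between the groups, with a score for each, holds only the authors' comparison and was not used. Reads and input libraries were not analysed here.

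Intervals were merged with Python 3.11.15, and numpy 2.4.6, scipy 1.17.1 and pysam 0.24.0 were used. A region was assigned to the gene with the most overlap on the strand of its highest peak (RefSeq Annotation Release 106) and its midpoint was located on the longest coding transcript. The file build and the reference are the same assembly, and between 49.7% and 63.4% of the peak starts of a list coincided with an exon start. Where a region held several peaks of a sample, the highest score was taken. The distance of adjacent intervals is 1 bp. The code was tested on simulated data. Members and lists were chosen with earlier results of these data known.

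Genes were named when they held 1 of the 20 regions on exons with the highest lowest score, 3 or more regions, a region within a list (up to 4 per list in detail), or lay nearest to the border, 5 on each side. Of these, 2 genes are not reported here. Outside this rule, FYN, RALY, NFKBIZ, PRMT1 and ZAN were named after their values were seen. The lists covered flagellum, acrosome, spermatid chromatin, germline RNA and meiosis, m6A enzymes and readers, ion channels, energy metabolism, apoptosis and stress, chromatin, the ubiquitin system, signalling and 5 groups of cell type markers. The held-out difference was tested by a two-sided exact sign-flip over the 3 pairs of equal number. The alternatives were a minimum score, equal list lengths, merging by strand or over gaps, a base shared by the 3 Fs peaks, other codon and motif windows, no pairing, and the omission of each sample in turn.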

Additional observations from a re-analysis of the deposited data

How the results depend on the processing

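Of 126 values recomputed under 21 alternatives, 91 stayed within their limits and 35 moved. A move was a change by more than a factor of 1.5 for the number of regions, a value outside the 95% interval for shares and the median, and a change by 1 SD or more for a held-out difference with no test. Held-out differences with a test kept their sign, which was their limit. The share of genes without an Fts peak went from under to over 50% in 4 alternatives.

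With a minimum score of 20 in every list there were 407 Fs-only regions, of which 66.2% were in the CDS class and 10.8% in the stop codon or 3′UTR class, with a median GC content of 55.4% and 68.3% of genes without an Fts peak. With a minimum of 50 there were 217, with 90.3% on exons, 63.8% in the CDS class, 9.20% in the stop codon or 3′UTR class, a GC content of 57.9%, GGACT in 25.8% and 76.3% of genes without an Fts peak. A minimum score takes peaks out of the Fts lists too, so that regions enter as well as leave. A score of at least 50 in each Fs sample with no Fts peak of any score left 66 regions, with 90.9% on exons, 63.3% in the CDS class, a GC content of 60.3%, GGACT in 18.2% and 32.2% of genes without an Fts peak.

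With lists of equal length, 8015 peaks each, there were 1103 Fs-only and 1419 Fts-only regions, and 53.1% of genes had no Fts peak. Codon classes of 200 nt gave 62.7% in the CDS class and 16.1% in the stop codon or 3′UTR class, and 100 bp around the midpoint held GGACT in 9.72% of regions. Of the alternatives chosen after seeing the data, leaving out regions met by an Fts peak across a junction gave 47.3% of genes without an Fts peak, and leaving out regions under 50 bases moved no value.

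Leaving out 1 sample in turn gave between 1314 and 2280 regions, the highest without Fs 1 (1650 without Fs 2 and 1668 without Fs 3), as 1 sample fewer must hold a peak. The share on exons was between 85.1% and 86.4%, that in the CDS class between 70.5% and 72.3%, that in the stop codon or 3′UTR class between 12.7% and 13.9%, the GC content between 51.4% and 53.2%, GGACT between 21.7% and 23.3% and the genes without an Fts peak between 42.2% and 50.5%.

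The held-out difference was between 47.5 and 52.1 percentage points under the alternatives that kept the 3 pairs, and the mirror difference between 56.1 and 59.7. Without 1 replicate number, with the choice resting on 1 sample per group, they were 26.0 to 31.3 and 33.5 to 39.1 with no test. The labels do not state that equal numbers share a boar. The deviations of peak presence from the group mean had correlations of -0.0191, -0.00743 and -0.00360 in samples of the same number over 29695 regions, and no sample correlated best with its own number. With no replicate block the held-out difference was 47.4 and the mirror difference 56.1 (two-sided exact permutation of 3 against 3 samples, p = 0.1 for both, the smallest p possible). Each sample also helped to choose the regions looked up in the others, so that neither test of these differences had independent values. Read depth was not analysed here, and it limits every absence of a peak.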
